A study of Drosophila melanogaster with 4 samples.

Results

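The wing genes vg and ct were examined in maps of histone H3 trimethylated at lysine 27 (H3K27me3) from wild-type Drosophila melanogaster larvae. Their members are the regions of significant enrichment, called clusters here, that overlap a window around each gene on FlyBase release 5 of the genome: 2R:8740000-8820000 for vg and X:7380000-7600000 for ct. The rule uses positions alone, although the windows were chosen with earlier results of these data known. In the 3 deposited lists together, 37 of 9295 clusters met the rule. The replicate 1 list gave 24 of its 2510 clusters, 1 at vg and 23 at ct. The replicate 2 list gave 6 of its 1819, 1 at vg and 5 at ct. The remaining list, deposited for the series as a whole and called combined here, gave 7 of its 4966, 1 at vg and 6 at ct.

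All libraries came from whole larvae of the third instar of the Oregon-R strain, and no mutant, treatment or other stage was compared. Chromatin was fixed with formaldehyde, sheared, and precipitated with a mouse monoclonal antibody against H3K27me3; 2 ChIP libraries and 2 libraries of input DNA (sheared chromatin that was not precipitated) make up the series. The input libraries have no list among the files analysed here, so no value below is set against them. Whether the replicates came from separate larval collections is not stated, and the spread between them may be technical. The read depth behind each list is unknown. With 2 samples of a single group, no test between groups is possible.

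H3K27me3 is deposited by the Polycomb repressive complex PRC2 and covers developmental genes in cells where they are kept silent, often as domains far wider than the gene itself. vg encodes Vestigial, a nuclear cofactor of the TEAD-family DNA-binding protein Scalloped, and is known as the selector gene of wing identity. ct encodes Cut, a homeodomain transcription factor of the wing margin and of external sensory organs, and its tissue-specific enhancers are known to lie far upstream of the promoter. Each gene is active in some larval tissues and silent in most, so a map of whole larvae averages both states.

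The H3K27me3 domain at vg was a single block, separated from its neighbours and nearly identical in both replicates. In replicate 1 it was a single cluster, 2R:8770216-8803240, 33.0 kb wide. In replicate 2 it was again a single cluster, 2R:8769001-8803562, 34.6 kb wide. The combined list had 2R:8768857-8803522, 34.7 kb wide. No other cluster of any list fell in the 80 kb window.

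The replicates placed the right edge of the vg domain within 322 bp of each other and the left edge within 1215 bp. Replicate 2 reached further out on both sides. Replicate 1 lay wholly inside replicate 2, which held an additional 1.54 kb. The clusters covered 41.3% of the vg window in replicate 1 and 43.2% in replicate 2, a mean of 42.2% ± 1.36 (SD, n = 2). For the whole of arm 2R the mean was 10.6% ± 1.52 (SD, n = 2). The Jaccard index, the sequence covered in both replicates over the sequence covered in either, was 95.6% in the vg window, against 59.7% on 2R and 65.9% over the 6 chromosome arms. The arm values are not a comparison at like width, and neither window coverage nor the Jaccard index was computed at like width. Other measures of the vg domain are set beside clusters of like width further below. The arm values include many narrow clusters, with a median width of 1798 bp in the replicate 1 list and 2146 bp in the replicate 2 list.

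Left of the vg domain lay a long stretch without a called cluster in either replicate. Signal below the calling threshold, which is not stated, cannot be seen in these lists. The next cluster on that side was 100.4 kb away in replicate 1 and 98.4 kb away in replicate 2. The combined list had a cluster of 1182 bp at 34.6 kb. On the right, the nearest clusters began at 23.6 kb in replicate 1 and 22.3 kb in replicate 2, outside the window. Behind them lay a broad domain that is not a member, 101.9 kb wide in replicate 1 and 109.8 kb wide in replicate 2. The vg domain is therefore bounded by gaps of 22.2 kb or more in each of the 3 lists.

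**Figure D1:**
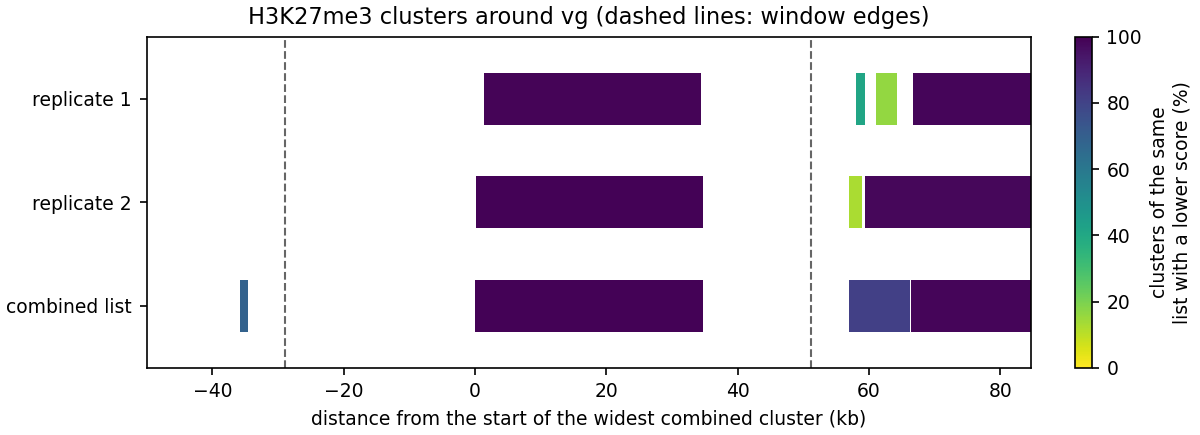
Clusters around vg in the replicate 1, replicate 2 and combined lists, drawn to scale against distance in kb from the start of the combined vg cluster. Bars are clusters, colour is the percentage of clusters of the same list with a lower score, and dashed lines are the window edges; each list has 1 cluster between them, and a separate broad domain lies to the right.

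In a gene table of release 6 of the genome, the protein-coding genes next to vg on the side of lower coordinates are Nmda1 and AspRS, which encodes aspartyl-tRNA synthetase. On the other side, by order of start position, 4 non-coding RNA genes come after vg and before the protein-coding gene NAT1. For 2 of these RNAs, CR46336 and CR46337, the table gives the name vg-PRE/TRE, for the Polycomb and Trithorax response element of vg, the type of DNA element through which these proteins are recruited in flies. The table and the files belong to different releases, so the table was used for the order of gene starts alone. Whether any of these genes overlap vg was not examined. Which of these genes lie inside the vg domain, and where the transcription unit and promoter of vg lie in it, was not analysed here.

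The deposited score of the vg domain was among the highest of each list. The score is the authors' own value per cluster, of unstated scale, and was compared only inside a list. In replicate 1 the vg cluster scored 2.03 and ranked 20 of 2510 by score, while ranking 75 by width. In replicate 2 it scored 2.93 and ranked 11 of 1819 by score and 105 by width. In the combined list it scored 2.55 and ranked 35 of 4966 by score and 109 by width. The clusters above it were in part narrow ones: among clusters of 20 kb or more, vg ranked 13 of 135 in replicate 1, 8 of 166 in replicate 2 and 8 of 176 in the combined list.

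The domain at ct was a different shape: about 156 kb wide in replicate 2 and in the combined list, and broken into pieces in replicate 1. In replicate 2 it was a single cluster, X:7394959-7550978, 156.0 kb wide, rank 10 of 1819 by width. In the combined list it was X:7394722-7550846, 156.1 kb wide, rank 9 of 4966. Replicate 1 had 16 separate clusters over this sequence and covered 81.0% of it, against 99.8% in replicate 2. The Jaccard index in the ct window was 74.5%, against 67.4% for the whole X chromosome, which again includes clusters of all widths.

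The replicate 1 pieces at ct fell into an unbroken right part and an interrupted left part, a division made after the clusters were seen. The right part was a single cluster, X:7486768-7543773, 57.0 kb wide and rank 36 of 2510 by width. It made up 36.5% of the combined outline, and replicate 2 covered all of it. To its left lay 92.0 kb of the outline with 14 replicate 1 clusters of 1545 to 8494 bp, a median of 4309 bp, and 73.5% of the sequence covered. Replicate 2 covered 99.7% of that left stretch in 1 piece. To the right of the wide cluster, the last 7.07 kb of the outline held a single replicate 1 cluster of 1790 bp.

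Taken from the left, the first pieces of 2 kb or more in replicate 1 were X:7401173-7404390, X:7405888-7413944, X:7414556-7423007 and X:7423619-7428618. They were followed by X:7429661-7431717, X:7431915-7434856 and X:7435655-7442506. The first and last pieces of this row were 3218 and 6852 bp wide, and the piece from 7414556 was the widest of the row with 8452 bp. Next came X:7448830-7451220 and X:7451352-7455364, with narrower clusters of 1545 and 1594 bp just before them. The last pieces before the wide cluster were X:7457818-7466226, X:7466815-7471419 and X:7474806-7483299. The highest score among the pieces left of the wide cluster, 1.02, belonged to X:7466815-7471419.

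The breaks between these pieces were short. Inside the outline replicate 1 had 15 gaps of 107 to 3919 bp, with a median of 947 bp and 21.9 kb in all. Of these, 8 were under 1 kb and 5 were 2 kb or more. All 15 were filled completely in replicate 2. In bins of 10 kb along the outline, replicate 1 covered 32.2% of the first bin, between 61.1% and 93.9% of the next 9, and 100% of the following 4. Replicate 2 covered 97.6% of the first bin and 100% of every other.

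**Figure D2:**
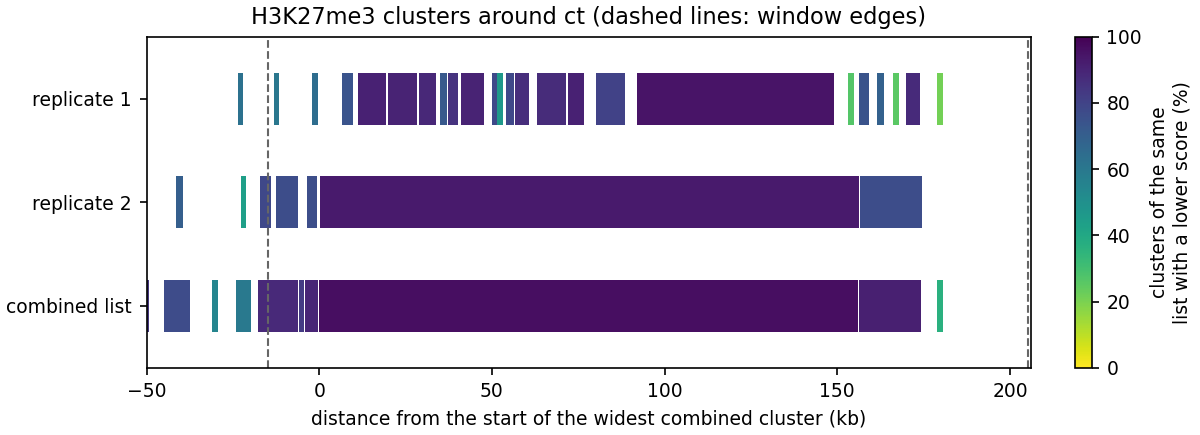
Clusters around ct in the replicate 1, replicate 2 and combined lists, drawn to scale against distance in kb from the start of the combined ct cluster. Bars are clusters, colour is the percentage of clusters of the same list with a lower score, and dashed lines are the window edges; the 156 kb block of replicate 2 and the combined list corresponds to 16 bars in replicate 1, of which the rightmost wide one spans 57.0 kb.

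**Figure D3:**
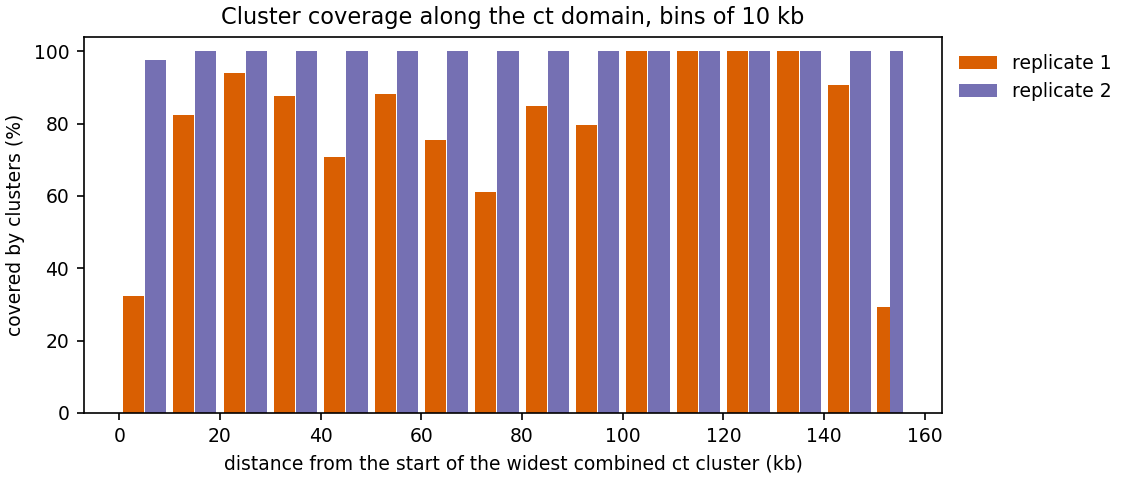
Share of each 10 kb bin along the combined ct cluster that was covered by clusters of replicate 1 and of replicate 2, in percent (the last bin is shorter). Replicate 2 is at or close to 100% throughout, while replicate 1 reaches 100% in the 4 bins between 100 and 140 kb and is lowest in the first and last bins.

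The edges of the ct domain, taken within the combined outline, were less alike than those of vg. They rest on short breaks: the next combined cluster was 284 bp away on the left and 77 bp away on the right. Merging across gaps under 1 kb turned the 6 combined clusters of the window into 2. On the left, the first replicate 1 piece in the outline began 6214 bp inside the replicate 2 edge. On the right, replicate 1 ended 1496 bp inside the replicate 2 edge. Within the outline replicate 2 reached further out on both sides, as it did at vg. Left of the outline replicate 1 had a further cluster, X:7392494-7394426, so its left edge is the end of a gap in replicate 1.

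Each list had a break near the right end of the main ct domain, but no base was missing from all 3 lists. Replicate 1 had none of the sequence from 7549483 to 7551068, 1586 bp. Its gaps before and after that one were longer, 3919 and 2444 bp, so the break did not stand out in replicate 1. The break of replicate 2 ran from 7550979 to 7551231, 253 bp, and that of the combined list from 7550847 to 7550923, 77 bp. The combined break lay inside the replicate 1 break and was filled in replicate 2. Of the replicate 2 break, 64.4% was filled in replicate 1 and all of it in the combined list. Beyond these breaks a second domain followed, X:7551232-7569253 in replicate 2 and X:7550924-7569092 in the combined list, both about 18 kb wide (18.0 and 18.2 kb). Replicate 1 covered 57.6% of the second domain as outlined in the combined list, in 4 clusters, X:7551069-7553903, X:7556348-7558391, X:7564538-7568551 and a narrower one of 1565 bp.

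Short clusters also stood on the left of the ct domain. In replicate 2 these were X:7377643-7380884, which crosses the window edge, X:7382081-7388643 and X:7391242-7393993, the last of them 965 bp from the main domain. The combined list had X:7376971-7388544, also across the window edge, X:7390514-7394437 and a cluster of 1317 bp between them that overlapped neither replicate. Replicate 1 had only clusters of 1347 and 1933 bp there. At the far right of the window a cluster of 1805 bp, X:7573597-7575401, was found in replicate 1 and in the combined list but not in replicate 2; it is the only ct cluster of replicate 1 with no base in replicate 2.

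Counting every cluster of the window, 22 of 23 ct clusters and the 1 vg cluster of replicate 1 shared at least 1 bp with replicate 2. Over the whole replicate 1 list the share was 62.5%. In the other direction 4 of 5 ct clusters and the 1 vg cluster of replicate 2 shared a base with replicate 1, where the whole list had 51.2%. When 50% of a cluster had to be covered, replicate 1 kept 22 of 23 ct clusters and its vg cluster (60.0% over the whole list), and replicate 2 kept 3 of 5 and its vg cluster (39.3% over the whole list). Pieces that lie under a single replicate 2 cluster are found again together: 16 of the 22 lie under the main ct cluster of replicate 2, so these counts are not independent observations. Of the combined clusters, 5 of 6 at ct were found in replicate 1 and 4 of 6 in replicate 2, and the vg cluster was found in both. The whole combined list had 31.8% in replicate 1 and 32.6% in replicate 2, and no further ChIP library stands behind that list, so its overlap adds no separate evidence.

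In covered sequence the replicates differed far more at ct than at vg. Clusters covered 64.5% of the 220 kb ct window in replicate 1 and 83.7% in replicate 2, a mean of 74.1% ± 13.6 (SD, n = 2). The mean for the whole X chromosome was 10.5% ± 0.991 (SD, n = 2). At ct, replicate 2 had 45.0 kb that replicate 1 lacked, and replicate 1 had 2.73 kb that replicate 2 lacked. Replicate 2 held 98.1% of the replicate 1 sequence of the window, and replicate 1 held 75.6% of the replicate 2 sequence.

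The scores of the ct clusters stood lower in their lists than the score of vg. The wide replicate 1 cluster scored 1.32, rank 130 of 2510 and rank 96 of the 135 clusters of 20 kb or more. The main replicate 2 cluster scored 1.83, rank 125 of 1819 and rank 101 of 166 by the same measures. In the combined list the main cluster scored 1.50, rank 182 of 4966 and rank 103 of 176. Thus vg stood in the upper part of the broad clusters by score in all 3 lists, and ct below their middle. On the X chromosome alone, the main ct cluster ranked 21 of 417, 16 of 308 and 17 of 784 by score in replicate 1, replicate 2 and the combined list.

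The smaller clusters at ct mostly scored above the middle of their lists. In replicate 1, leaving out the wide cluster, 18 of 22 ct clusters scored at or above the median of that list (0.663). The same count was not made over all X clusters. A ct cluster scoring 0.702 ranked 990 of 2510 in the list but 299 of 417 on the X chromosome. Most X clusters of replicate 1 thus also scored above that median, so the count does not set ct apart from its chromosome. The lowest score, 0.567, belonged to the cluster at the far right of the window and was above that of 21.2% of the list. On the X chromosome alone that cluster ranked 401 of 417. In replicate 2 all 4 smaller clusters scored above the median, between 0.834 and 0.858. In the combined list 4 of 5 smaller clusters did, and the lowest, again at the far right, was above 36.7% of the list. Among the combined clusters of the X chromosome it ranked 675 of 784. In replicate 1 wider ct clusters also had higher scores, with a Spearman correlation of 0.85 over the 23 clusters, which share a library and a locus; over all 2510 clusters of that list it was 0.59.

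**Figure D4:**
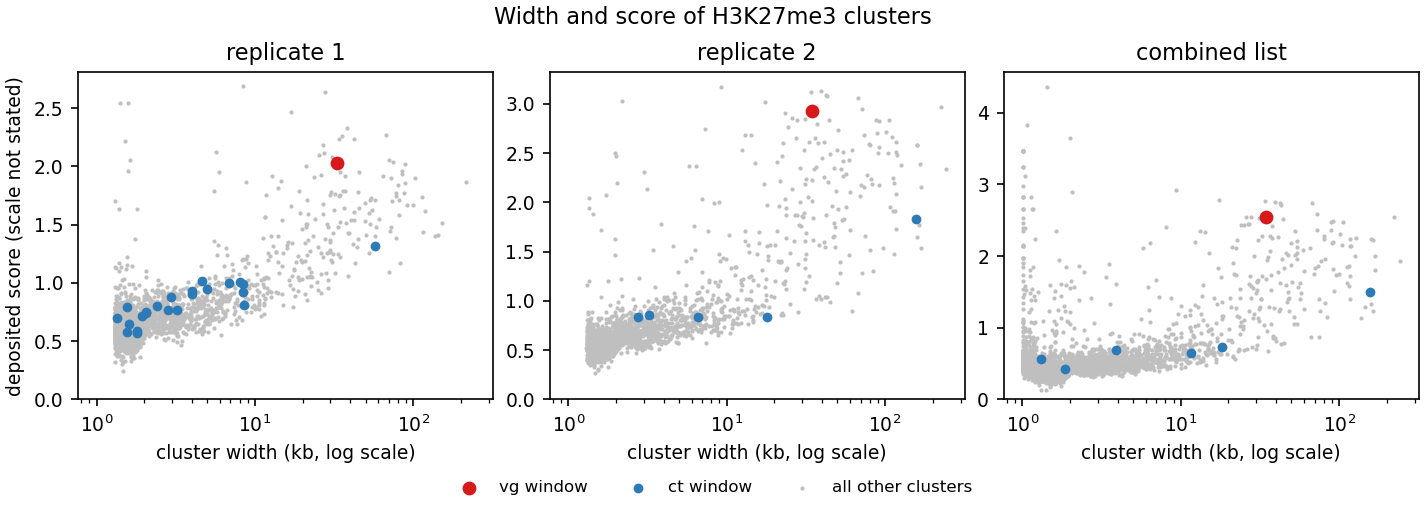
Width in kb (log scale) and deposited score of every cluster in the replicate 1, replicate 2 and combined lists, with clusters of the vg and ct windows in colour; score axes differ between panels, and scores are not comparable between lists. The vg cluster is near the top of the clusters of like width in each panel, and the main ct cluster is below the middle of the clusters of 20 kb or more.

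The domains were next set beside other combined clusters of like width. At vg, 35 of the 107 other combined clusters of 20 to 50 kb were, like vg, matched by a single cluster in each replicate. Replicate 1 covered 95.3% of the vg outline, against a median of 89.5% for the others (quartiles 75.3% and 95.9%). Replicate 2 covered 99.6% of it, against a median of 99.5%. The larger of the 2 edge distances at vg, 1215 bp, was close to the median of the others, 1158 bp. By combined score, 102 of the 107 others were lower than vg. Its width of 34.7 kb exceeded that of 67 of the 107. The 50 kb to its left were 2.36% covered in the combined list, against a median of 15.7% for the others, and 80 of the 107 had more there. The 50 kb to its right were 55.3% covered, against a median of 16.9%, and 74 of the 107 had less there. The neighbourhood of vg was thus sparse on the left and, past the gap, densely marked on the right.

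The ct domain was more broken up in replicate 1 than most of the 67 other combined clusters of 50 kb or more. It overlapped 16 replicate 1 clusters, against a median of 3 for the others (quartiles 2 and 7), and 4 of the 67 had more pieces than ct. These counts were not adjusted for width, and wider clusters have room for more pieces: ct was 156.1 kb wide, against a median of 83.3 kb. As a share of its outline, the longest replicate 1 piece at ct was 36.5%, against a median of 74.5%, and 13 of the 67 had a lower share. Replicate 1 covered 81.0% of ct, against a median of 95.8% for the others (quartiles 89.7% and 98.2%), of which 9 had a lower share than ct. In replicate 2, 54 of the 67 were a single cluster, as ct was. The larger edge distance at ct, 6214 bp, was exceeded by 7 of the 67, whose median was 1131 bp. The 50 kb to the left of ct were 62.3% covered in the combined list, against a median of 31.0% for the others, and the 50 kb to its right 40.0%, against a median of 11.5%.

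Clusters with low scores were often broken up in the same way. Across the 68 combined clusters of 50 kb or more, ct included, the combined score had a Spearman correlation of -0.80 with the number of replicate 1 pieces and of 0.77 with the share covered in replicate 1. These clusters share the same libraries, so the correlation is a description. The 17 clusters that scored below ct had a median of 9 pieces (range 3 to 22) and a median replicate 1 share of 82.6%. The 50 that scored above ct had a median of 3 pieces (range 1 to 11) and a median share of 97.6%. The number of pieces at ct, 16, lay inside the range of the clusters that scored lower and above the range of those that scored higher. Piece numbers were not adjusted for width, and ct was wider than 59 of the 67 others. The replicate 1 share at ct, 81.0%, lay inside the range of both groups. That range was 68.1% to 93.4% for the lower-scoring clusters and 76.8% to 99.7% for the higher-scoring ones.

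**Figure D5:**
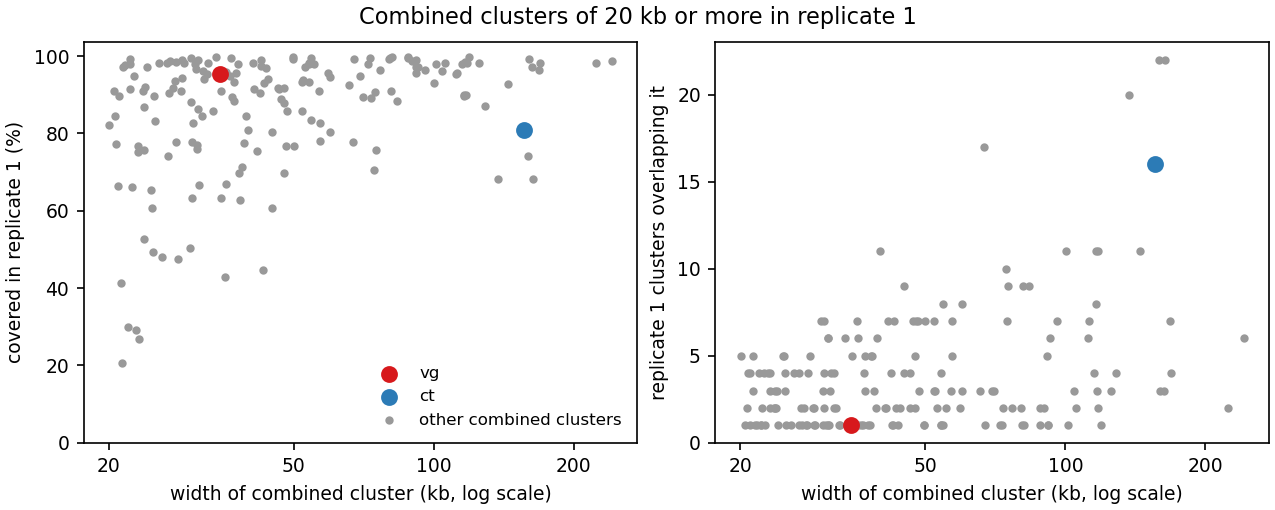
Combined clusters of 20 kb or more, plotted by width in kb (log scale) against the percentage of each covered by replicate 1 (left) and the number of replicate 1 clusters overlapping it (right), 1 point per cluster. vg has 1 piece and 95.3% covered, and ct has 16 pieces and 81.0% covered.

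In the release 6 gene table, by order of start position, the protein-coding genes nearest to ct are CG12689 and CG11369 on the side of lower coordinates. On the other side it is CHES-1-like, a forkhead-family gene, and 3 non-coding RNA genes start after ct and before it. The table was again used for the order of gene starts alone, and overlap of these genes with ct was not examined. The values above show how far the clusters extended around ct. How they were divided between the ct transcription unit, its upstream enhancers and the neighbouring genes was not analysed here. Promoter or protein sequences of vg and ct were not used here.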

How the data were processed

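H3K27me3 ChIP-seq clusters were taken from 3 lists deposited by the authors, 1 per ChIP replicate and 1 combined list of the series. Each holds start, end and a deposited score per cluster, whose scale no source used here gives. Positions refer to FlyBase release 5, counted from 1, per the file headers. The submitters' processing notes name Bowtie 0.12.7. How clusters were called, at which threshold, and whether input was used is stated in no source used here. Replicates were grouped by the sample titles.

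Members are clusters sharing at least 1 bp with the vg or ct window. The windows, comparisons and listed genes were chosen with earlier results of these data known. Clusters were named by coordinates when 2 kb or wider or among the 3 highest scores of a window and list; a few others were named after their values were seen. Other wing genes (sd, ap, nub, wg, N, Dl, Ser) were not placed. Coverage and overlap were computed in base pairs with Python 3.11.15, numpy 2.4.6 and pandas 2.3.3, and plots drawn with matplotlib 3.10.9. The interval arithmetic was tested on simulated data and differed from counting single bases in 0 of 200 simulations. No p-value was computed. Alternatives were windows extended by 20 kb on each side, clusters at or above the median score, clusters of 5 kb or more, merging across gaps under 5 kb or under 1 kb, an overlap of at least 50% of a cluster, and each replicate alone.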

Additional observations from a re-analysis of the deposited data

How the results depend on the processing

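Of 60 recomputed values, 18 were shares of covered sequence, of which 17 stayed within 1 SD of the replicates, and 34 were counts, of which 22 stayed within 1.5 times. The other 8 were overlaps, which have no SD; any change was counted, and 5 changed. At vg, where the window holds a single cluster, score and width filters and merging changed no value. Extending it by 20 kb on each side gave 37.6% covered, an overlap of 85.6% and cluster counts of 4 in replicate 1, 3 in replicate 2 and 4 in the combined list. The clusters gained were those in front of and in the next domain on the right and, in the combined list, also the isolated one of 1182 bp on the left. At ct the overlap was 72.9% in the extended window, 72.5% with clusters at or above the median score, 56.6% with clusters of 5 kb or more and 89.3% after merging across gaps under 5 kb. Mean coverage at ct, 74.1% in the main setting, was 64.6% in the extended window and 72.6% with clusters at or above the median score. It was 64.3% with clusters of 5 kb or more and 82.2% after merging across gaps under 5 kb. These values stayed within 1 SD, but that SD, 13.6 from 2 unlike replicates, is a wide limit. With clusters of 5 kb or more, ct had 7 in replicate 1, 3 in replicate 2 and 3 in the combined list. These counts were 4, 1 and 1 after merging across gaps under 5 kb, and 15, 3 and 2 after merging across gaps under 1 kb. Both settings act on narrow pieces and short gaps, of which replicate 1 has the most at ct. With 1 replicate left out, coverage ranged from 41.3% to 43.2% at vg and from 64.5% to 83.7% at ct, which is within 1 SD by construction. Requiring 50% of a cluster to be covered left 22 replicate 1 clusters and 3 replicate 2 clusters found again at ct. No paired analysis was possible because lists exist for the ChIP group alone and no result comes from a test. Read depth is unknown, and its part in the broken ct domain of replicate 1 was not tested.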
